A study of Rattus norvegicus with 12 samples.

Results

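Messenger RNA of the rat Müller cell line SIRMu-1 was compared with that of primary rat Müller cells in culture. The comparison used 9 of the 12 libraries of the study, 5 of SIRMu-1 and 4 of primary cells, and all 17315 genes of the count tables. Libraries were chosen by their group label. The other 3 libraries, of the line rMC-1, entered only the filter on low counts, the scaling and the estimate of the spread between replicates.

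Both groups came from Sprague-Dawley rats of postnatal day 2 to 4 and were grown in MEM with 20% serum, 25 mM glucose and 2 mM glutamine. SIRMu-1 is described as a line that arose by spontaneous immortalization of such cells, with no added oncogene named in the labels, so all of its libraries are cultures of 1 line. The primary cells were taken at passage 4 (replicates 1 and 2) and passage 3 (replicates 3 and 4). All 4 primary cultures received gentamicin at 87 mg/L and amphotericin B at 2.2 mg/L. SIRMu-1 was taken at passage 6 in replicate 1, at passage 11 in replicates 2, 3 and 4, and at passage 20 in replicate 5. Of the SIRMu-1 cultures, replicates 3 and 5 received the same 2 drugs and replicates 1, 2 and 4 did not. The labels call the libraries of a group biological replicates but name no animals, so the p-values below measure the spread between these libraries, part of which may be technical. Primary libraries held 22582345 to 29812705 reads in genes and SIRMu-1 libraries 26349346 to 36730443.

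Müller cells are the radial glia of the mature retina and reach from the photoreceptors to the vitreous. They take up glutamate and convert it to glutamine, carry potassium and water away from active neurons, recycle retinoid for cones and secrete trophic factors. In culture, primary cells lose many of these traits over passages and stop dividing, a limit that an immortalized line has passed.

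Levels are given as CPM, that is reads in a gene per 1000000 reads in genes of its library, after scaling for library composition (TMM). Values of single libraries are listed in replicate order, and where 2 series are given the 4 primary libraries come first and the 5 SIRMu-1 libraries after them. Differences are log2 fold changes, SIRMu-1 minus primary, with their standard error, from edgeR's quasi-likelihood test, and a gene is said to have risen or fallen only where its p-value, adjusted by the Benjamini-Hochberg method over the 11321 genes with enough reads to be tested, was under 0.05.

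SIRMu-1 had higher levels of genes of mitosis (40 of 41 tested), DNA replication (41 of 41) and recombination repair (12 of 12). It had lower levels of genes of the lysosome (23 of 28), the interferon response (17 of 23) and matrix proteolysis (14 of 19), and it lacked any read of 160 genes that primary cells expressed. In all, SIRMu-1 differed from the primary cells in 5220 of the 11321 genes, or 46.1%. Of these, 2454 were higher in SIRMu-1, which is 21.7% of the genes tested, and 2766 were lower, which is 24.4%. The counts in the 2 directions were thus close, but the sizes were not. A change of at least 2-fold was seen in 773 genes that rose and 1759 that fell, and one of at least 8-fold in 141 that rose and 883 that fell. The split at 8-fold was 113 to 174 against 613 to 938 under every alternative scaling, filter, test and set of libraries except with no filter on low counts, where it was 163 against 1421. The median log2 fold change over all tested genes was −0.02. The ranges of the 2 groups did not overlap in 1871 of the genes that rose and 1993 of those that fell. Calls counted in gene lists below are to be read beside the 21.7% of all tested genes that rose and the 24.4% that fell.

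**Figure D1:**
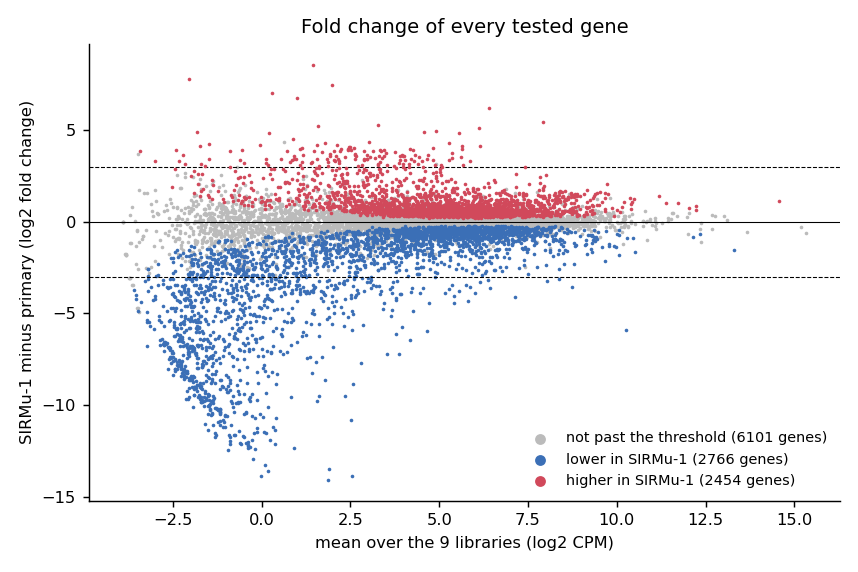
Log2 fold change of each tested gene (SIRMu-1 minus primary, vertical axis) against its mean log2 CPM over the 9 libraries (horizontal axis), with called genes in colour. The 883 genes that fell at least 8-fold form a tail below the cloud that has no counterpart of like size among the 141 that rose at least 8-fold.

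Libraries of a group were alike. Pearson correlations of log2 CPM over the tested genes were 0.947 to 0.992 within SIRMu-1, 0.933 to 0.971 within the primary cells and 0.81 to 0.898 between groups. The first principal component held 71.6% of the variance and separated the groups, with primary replicate 3 the primary library nearest to SIRMu-1. The deposited files carry a code that is shared by primary replicates 1 and 2, by SIRMu-1 replicates 1 to 3 and by SIRMu-1 replicates 4 and 5, and which the labels do not explain. With the libraries of a code summed, which leaves 3 primary and 2 SIRMu-1 libraries, 3173 genes were called, 1466 higher and 1707 lower. Since the drugs were in every primary culture but only 2 SIRMu-1 cultures, the test was repeated with those 2 alone. It called 3782 genes (33.4%), or 1218 without SIRMu-1 replicate 5, which leaves a single SIRMu-1 library whose spread is taken from the other groups. Of the 3782 genes, 3593 were among the 5220 with the same sign, and none of the 5220 had a fold change of the opposite sign. Within SIRMu-1, the cultures with and without the drugs differed in 0 genes by edgeR's adjusted p, a comparison of 2 against 3 libraries with 433 genes at an unadjusted p under 0.05.

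**Figure D2:**
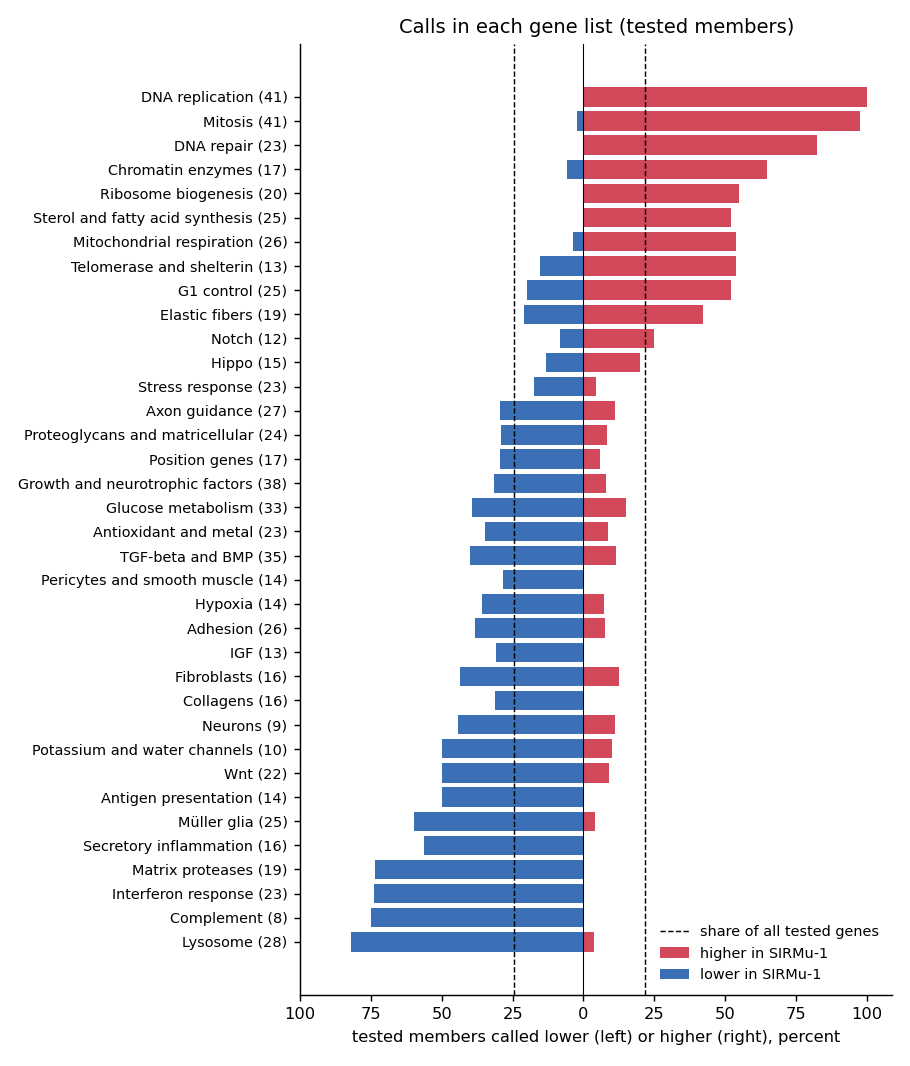
Gene lists reported here with at least 8 tested members, each row a list, with the share of its tested members that rose (right) or fell (left) in SIRMu-1, in percent. Dashed lines mark the shares over all 11321 tested genes, 21.7% higher and 24.4% lower. Mitosis and DNA replication stand furthest to the right, the lysosome furthest to the left.

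The cell type label was first checked against defining markers. Of 25 tested genes of a Müller list, 15 fell, 1 rose (Dbi) and 9 did not pass, with a median log2 fold change of −1.56. Its members differed widely in level. Glul, the glutamine synthetase of glia, was at 161, 114, 67.7 and 228 CPM in primary cells and 52.7, 39.7, 49.2, 54.4 and 87.7 CPM in SIRMu-1 (−1.33 ± 0.31, adjusted p = 0.00444), with overlapping groups. Clu, the secreted chaperone clusterin, was at 456, 507, 899 and 1134 CPM and 246, 126, 165, 216 and 539 CPM (−1.54 ± 0.43, adjusted p = 0.0117), also with overlap. Slc1a3, the glial glutamate transporter, was at 35.6, 33.1, 14.8 and 53.2 CPM and 22.5, 27.2, 19.4, 27.8 and 17.9 CPM (adjusted p = 0.135), and Sox9, a glial transcription factor, at 40.3, 47.5, 83.8 and 37.2 CPM and 66.6, 84.3, 107, 78.4 and 22 CPM (adjusted p = 0.374), and neither passed. With the 2 SIRMu-1 cultures that had the drugs, neither Glul (−1.06, adjusted p = 0.0687) nor Clu (−1.09, adjusted p = 0.143) passed. Glul also did not pass with the libraries of a code summed (−1.28, adjusted p = 0.0958). All 4 genes had reads in every library of both groups. They do not stand for the list, of which other members fell further. Secreted and other genes fell in 7 of 9 (median −2.45), and filament and surface genes in 3 of 4 (−1.18). Transcription factors fell in 3 of 6 (−1.21), and genes of transmitter, retinoid and ion handling in 2 of 6, with 1 higher (−0.95). Timp3, a secreted member, fell with groups apart (−2.45 ± 0.38). Other markers of mature Müller cells were near 0 in both groups. Rlbp1, the retinoid-binding protein of Müller cells and pigment epithelium, had 6 reads over the 4 primary libraries and 22 over the 5 of SIRMu-1. Aqp4, the glial water channel, had 2 and 0 reads, and Kcnj10, the potassium channel of Müller endfeet, had 13 and 0. Summed over the whole list the level was 9149 to 10470 CPM in primary cells and 3968 to 5311 CPM in SIRMu-1, most of which is the filament gene Vim. The label was thus met by part of the list only, in both groups.

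Markers of other cell types that such cultures could hold were read in the same way. A fibroblast list summed to 72700 to 193400 CPM in primary cells and 69930 to 94510 CPM in SIRMu-1, with 7 of 16 tested members lower and 2 higher. Such a sum follows its most abundant genes and does not show that the list was alike in both groups. Matrix members fell in 4 of 9 and rose in 1 (median −1.09). Surface and transcription members fell in 3 of 7 and rose in 1 (median 0.01). Thy1, a surface member, had 58168 reads in primary cells and 4 in SIRMu-1 (−14.09 ± 1.09, edgeR adjusted p = 5.0e-06). Dcn, a matrix member, was nearly lost (−7.23 ± 1.47). Microglial genes summed to 234.4 to 452.9 CPM and 175.3 to 224.6 CPM, with 4 of 6 tested members lower. Of the 16 listed, 10 had too few reads to be tested, among them Cx3cr1 (2 and 0 reads) and Aif1 (8 and 0). Only 1 tested member had a mean log2 CPM of at least 3, so this sum too follows few genes. In the smooth muscle and pericyte list 4 of 14 fell and none rose, a share of falls near the 24.4% of all genes. Neuronal genes fell in 4 of 9 and rose in 1. Only 1 of 10 photoreceptor genes had enough reads to be tested, and it did not pass. In bulk RNA, fewer cells of a type and less of its RNA per cell cannot be told apart, and the part of other cell types in the differences below was not tested.

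Cell division genes made up the most uniform rise. Of 41 tested genes of mitosis, 40 were higher in SIRMu-1 and 1 was lower, with a median log2 fold change of 3.38. All 41 tested DNA replication genes were higher, with a median of 1.88. Genes of S phase and mitosis are controlled by E2F factors and by the DREAM and MuvB complexes. E2F factors act on replication genes, and the complexes act on mitosis genes through a short promoter element called CHR. Because the members moved together, their promoters are shown before their values, one of each kind.

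The promoter windows come from RefSeq (GRCr8) and run from 250 bases before to 50 after each gene's start. In the promoter of Mki67, a marker of cycling cells, the capitals mark 2 matches to the CHR letters TTTGAA or TTCGAA, at −117 and −99 from the start (chr1:199952544-199952843, minus strand).
Mki67: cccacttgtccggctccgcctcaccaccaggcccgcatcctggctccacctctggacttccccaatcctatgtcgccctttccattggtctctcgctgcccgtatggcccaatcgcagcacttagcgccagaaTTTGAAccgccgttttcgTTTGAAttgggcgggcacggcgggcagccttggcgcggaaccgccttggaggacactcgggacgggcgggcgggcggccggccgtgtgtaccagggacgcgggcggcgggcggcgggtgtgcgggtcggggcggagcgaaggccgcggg
In that of Mcm5, a subunit of the replicative helicase, the capitals mark 3 matches to the E2F letters TTTCCCGC, TTTCGCGC, TTTGCCGC or TTTGGCGC, at −213, −209 and −8, of which the first 2 overlap on opposite strands (chr19:13488563-13488862, plus strand).
Mcm5: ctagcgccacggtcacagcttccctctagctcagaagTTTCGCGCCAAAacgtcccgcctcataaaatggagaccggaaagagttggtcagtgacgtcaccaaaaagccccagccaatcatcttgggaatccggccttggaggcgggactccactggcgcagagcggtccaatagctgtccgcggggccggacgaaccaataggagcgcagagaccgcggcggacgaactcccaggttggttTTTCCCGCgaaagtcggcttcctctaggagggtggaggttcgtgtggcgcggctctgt
Gbp5, an interferon-induced GTPase that fell in SIRMu-1, is shown for contrast. Here the capitals mark 2 matches to GAAANNGAA, the core of interferon response elements, at −159 and −55 (chr2:233910749-233911048, plus strand).
Gbp5: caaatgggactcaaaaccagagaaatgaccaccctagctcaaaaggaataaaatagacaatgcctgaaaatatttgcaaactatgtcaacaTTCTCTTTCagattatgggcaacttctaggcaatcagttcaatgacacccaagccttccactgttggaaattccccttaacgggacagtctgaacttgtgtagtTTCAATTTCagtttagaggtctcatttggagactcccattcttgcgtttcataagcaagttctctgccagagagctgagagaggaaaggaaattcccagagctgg

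Each motif was searched on both strands, with overlapping matches counted. The CHR letters were in 25 of 33 mitosis promoters found in the table (75.8%), against 19.7% of all 33469 promoters and 13.1% of the 8217 promoters of tested genes. In the replication list they were in 6 of 33 (18.2%), close to the share of all promoters. The E2F letters gave the reverse, in 16 of 33 replication promoters (48.5%) but 1 of 33 mitosis promoters (3.03%), with 2.14% of all promoters and 3.99% of those of tested genes. The interferon letters were in 9 of 15 promoters of the interferon list (60.0%), against 9.71% of all and 6.96% of those of tested genes. CCAAT, which many promoters carry, was in 63.6% of the mitosis, 60.6% of the replication, 26.7% of the interferon and 80.0% of the 15 sterol and fatty acid promoters, against 37.5% of all. The motif TCACNCCAC, of sterol response elements, was in 0 promoters of these 4 lists and 1.12% of all. A match is a description of letters and not a site in use or a cause, and the lack of one says nothing of the factor.

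**Figure D3:**
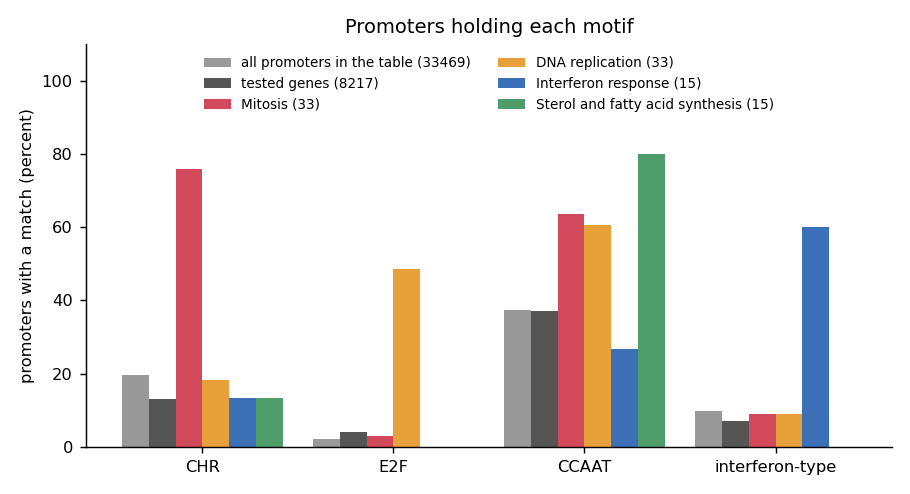
Share of promoters, in percent, that hold each motif, for 4 gene lists, for tested genes and for all promoters in the RefSeq table. The CHR bar of mitosis (75.8%) and the E2F bar of replication (48.5%) stand far above the bars of all promoters (19.7% and 2.14%).

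Mki67 was at 13.4, 13.5, 11.2 and 7.45 CPM in the primary libraries and 226, 38.9, 173, 251 and 317 CPM in SIRMu-1 (log2 fold change 4.14 ± 0.51, adjusted p = 8.90e-05). Every SIRMu-1 library lay above every primary one, but replicate 2 lay well below the other 4. The same order held for Top2a, the topoisomerase that untangles chromosomes, with 14.2, 14.2, 13.7 and 6.92 CPM against 200.4, 41.5, 156, 234 and 310.4 CPM (3.94 ± 0.50). Cdk1, the kinase that starts mitosis, was at 11.2, 7.00, 7.20 and 4.10 CPM and 93.1, 21.9, 72.5, 103 and 105 CPM (3.42 ± 0.44), and its partner Ccnb1 rose by 3.56 ± 0.41. Summed over the mitosis list, replicate 2 of SIRMu-1 stood at 637 CPM, the other 4 at 1817 to 2712 CPM and the primary libraries at 311 to 477 CPM. The lowest SIRMu-1 library thus exceeded the highest primary one, by less than the spread within SIRMu-1. The gene that went the other way was Zwint, a kinetochore linker, at 231, 132, 143 and 225 CPM and 134, 122, 119, 84.0 and 94.2 CPM (−0.73 ± 0.19, adjusted p = 0.00902), with overlapping groups, and it did not pass with the libraries of a code summed (−0.76, adjusted p = 0.0505).

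Replication genes had a smaller median than mitosis genes, and all rose. Mcm5 was at 6.70, 2.88, 4.83 and 2.69 CPM in primary cells and 62.0, 10.9, 48.8, 73.2 and 72.7 CPM in SIRMu-1 (3.64 ± 0.51, adjusted p = 0.000195). Rrm2, the ribonucleotide reductase subunit made in S phase, stood at 6.39, 4.90, 5.59 and 3.75 CPM and 62.6, 11.5, 40.0, 55.3 and 55.9 CPM (3.12 ± 0.41). Pcna, the sliding clamp of the polymerases, changed least of those named, from 35.0, 39.5, 47.8 and 40.4 CPM to 95.5, 54.3, 78.4, 108 and 116 CPM (1.15 ± 0.20). By role, all 17 tested genes of origin licensing and the helicase rose (median 2.38), as did all 18 of polymerases and the fork (1.61) and all 6 of nucleotide supply (2.24).

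DNA repair divided by pathway. All 12 tested genes of homologous recombination and the Fanconi pathway rose, with a median of 2.72, while 3 of 6 genes of checkpoints and end joining did, with a median of 0.33. Brca1, which directs resection and strand invasion, was at 4.81, 5.05, 3.98 and 4.50 CPM and 21.4, 8.12, 18.2, 29.0 and 29.9 CPM (2.22 ± 0.32, adjusted p = 0.000231). Exo1, a resection nuclease, stood at 1.38, 0.599, 0.760 and 0.573 CPM and 8.64, 1.92, 5.57, 10.6 and 11.2 CPM (3.19 ± 0.49). In both the SIRMu-1 libraries lay above the primary ones, with replicate 2 lowest of the 5. Mismatch and base excision repair genes rose in 4 of 5 (median 0.86). No repair gene fell.

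Genes that gate entry into S phase moved in both directions. Of 25 tested G1 genes, 13 rose and 5 fell. Cdk6, a kinase that phosphorylates Rb, was at 12.9, 21.4, 29.6 and 41.6 CPM and 84.7, 99.3, 75.4, 67.4 and 53.5 CPM (1.53 ± 0.29, adjusted p = 0.00149). Its close relative Cdk4 was at 192, 167, 192 and 170.3 CPM and 336, 318, 366, 404 and 406 CPM (1.02 ± 0.11), and replicate 2 of SIRMu-1 was the highest of the 5 in Cdk6 and the lowest, by little, in Cdk4. Their partner Ccnd1 gave no difference past the threshold (95% interval of the log2 fold change −0.76 to 0.59). It was at 516, 362, 978 and 811 CPM in primary cells and 799.8, 819.5, 567, 508 and 450.2 CPM in SIRMu-1. Ccnd2, another D cyclin, fell with groups apart (−3.16 ± 0.16, edgeR adjusted p = 2.68e-07). Its levels were 242, 280, 330 and 291 CPM in primary cells and 21.3, 38.2, 31.5, 32.3 and 36.5 CPM in SIRMu-1. E2f7, a repressor of the E2F family that E2F factors switch on, rose from 0.670, 0.711, 0.268 and 0.308 CPM to 8.96, 1.92, 7.18, 11.1 and 11.4 CPM (4.02 ± 0.52). Cdkn1b, the inhibitor p27, rose as well (1.84 ± 0.33, adjusted p = 0.000872), with 11.6, 37.3, 25.2 and 13.8 CPM against 69, 67.7, 64.4, 78.1 and 115 CPM.

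Of 6 tested inhibitors in the G1 list, 2 rose and 3 fell. Cdkn1a, the inhibitor p21, which halts the cycle, was at 910.0, 991, 845 and 1963 CPM in primary cells and 463, 669.6, 406, 337 and 222 CPM in SIRMu-1 (−1.49 ± 0.32, adjusted p = 0.00269), highest in primary replicate 4 and lowest in SIRMu-1 replicate 5. Cdkn2a fell (−1.32 ± 0.41, edgeR adjusted p = 0.0205). Its groups were barely apart, with 32.1 CPM the lowest primary level and 31.7 CPM the highest of SIRMu-1. Primary replicate 4 was highest, at 163 CPM. Cdkn2b fell with overlapping groups (−1.66 ± 0.42, edgeR adjusted p = 0.00725). Cdkn2c rose with groups apart (3.42 ± 0.34, edgeR adjusted p = 2.5e-05). For Tert, the catalytic subunit of telomerase, levels were 1.85, 0.973, 1.12 and 3.26 CPM and 1.14, 1.54, 1.24, 1.94 and 1.27 CPM, and the difference did not pass (adjusted p = 0.576, 95% interval of the log2 fold change −1.33 to 0.66). Telomerase and shelterin genes rose in 7 of 13 and fell in 2. Dkc1, which stabilizes the telomerase RNA and also serves ribosome assembly, rose from 71.5, 52.7, 73.6 and 64.3 CPM to 107, 92.2, 119, 128 and 196 CPM (0.97 ± 0.20).

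In a list of chromatin enzymes 11 of 17 tested members were higher, 1 was lower and 5 did not pass. Uhrf1, which brings the maintenance DNA methyltransferase to replicated DNA, was at 3.43, 3.14, 3.35 and 2.03 CPM and 43.0, 8.94, 34.4, 56.6 and 54.5 CPM (3.72 ± 0.46, adjusted p = 9.80e-05). Ezh2, the methyltransferase of the Polycomb complexes, stood at 15.0, 10.4, 8.18 and 9.25 CPM and 80.8, 29.3, 64.1, 77.2 and 81.4 CPM (2.63 ± 0.29). Both kept SIRMu-1 above primary in every library. Ribosome assembly genes rose in 11 of 20 and fell in none, and respiratory chain genes rose in 14 of 26 and fell in 1, each by small amounts, with medians of 0.49 and 0.29.

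The falls were of another kind, since many genes went from clear expression to no reads or almost none. There were 160 genes with at least 100 reads over the 4 primary libraries and 0 reads in all 5 SIRMu-1 libraries, against 1 gene, Olr93, in the other direction. The 5 with the most primary reads were Sostdc1, Pla2g7, Nefm, Tmem117 and Mmp3. Folds for genes at 0 are lower bounds, computed against 3 reads over the group.

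Sostdc1, a secreted antagonist of BMP and Wnt signals, was at 87.7, 112, 1.39 and 50.2 CPM in primary cells, with 6384 reads in all, and at 0 in SIRMu-1, at least 3093-fold lower (adjusted p = 0.000712). Pla2g7, a phospholipase that hydrolyses platelet-activating factor, was at 24.5, 14.0, 58.9 and 108 CPM and at 0, at least 2302-fold lower. Nefm, a neurofilament subunit, was at 63.7, 29.3, 11.3 and 62.3 CPM and at 0, at least 1969-fold lower. These primary levels varied widely between cultures, Sostdc1 being lowest in replicate 3 and Pla2g7 highest in replicate 4, while SIRMu-1 had no read in any passage. Tmem117, a membrane protein, was steadier at 28.0, 29.3, 19.3 and 14.1 CPM and at least 1086-fold lower. Mmp3, a matrix protease induced by inflammation, was at 1.54, 1.38, 11.6 and 79.1 CPM, so its 2129 reads came mostly from replicate 4, and it was at least 1032-fold lower.

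In the opposite direction no gene reached such levels. Olr93, an olfactory receptor gene, was at 0 in the primary cells and at 1.21, 2.17, 0.578, 0.527 and 0.0749 CPM in SIRMu-1, at least 31.0-fold higher (adjusted p = 0.00825). Nkx2-3, Hmx2 and Trpm5 had 75, 47 and 27 reads in SIRMu-1 and 0 in the primary cells, too few to be tested. Of the 75 reads of Nkx2-3, a homeobox gene, nearly all were in replicate 5, where it stood at 2.77 CPM.

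**Figure D4:**
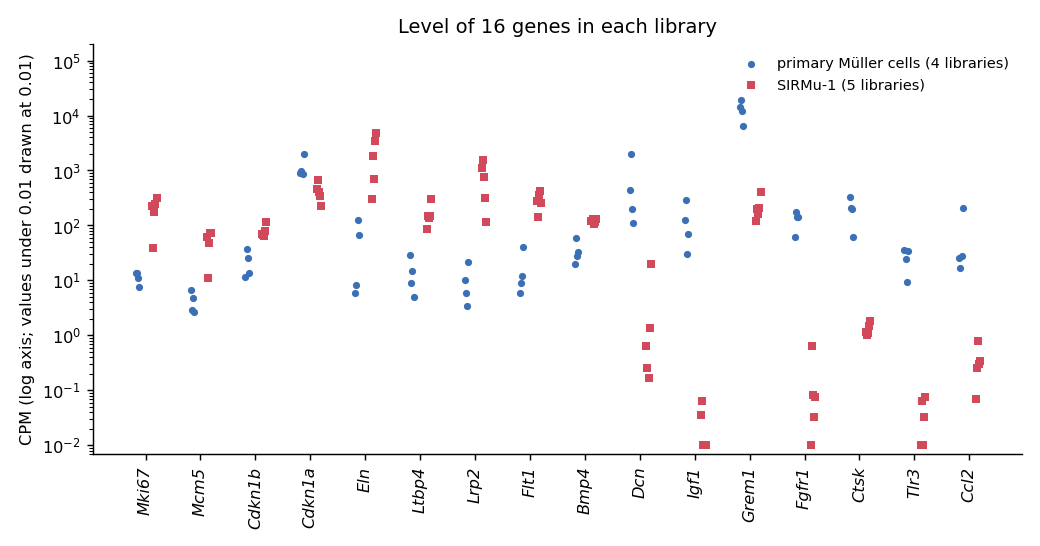
Level of 16 genes in each of the 9 libraries, in CPM on a log axis with values under 0.01 drawn at 0.01, primary cells as circles and SIRMu-1 as squares. Mki67 and Mcm5 sit higher in all 5 SIRMu-1 libraries, with replicate 2 lowest, and Igf1, Fgfr1 and Tlr3 sit at or near 0 in all 5.

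Some receptors for growth factors and for TGF-beta were among the genes nearly lost. Fgfr1, a main FGF receptor of mesenchymal and glial cells, was at 62.3, 175, 141 and 145 CPM in primary cells and 0, 0.629, 0.0826, 0.0329 and 0.0749 CPM in SIRMu-1 (−9.52 ± 0.79, or −11.35 without SIRMu-1 replicate 2, adjusted p = 8.29e-06). Eng, a co-receptor for TGF-beta and BMP proteins, was at 631, 770.0, 11.4 and 477 CPM and 0.178, 0.441, 0.124, 0.230 and 0.300 CPM (−10.81 ± 1.09), with primary replicate 3 far below the other 3 primary cultures. Acvrl1, the type I receptor that works with Eng, was at 142, 137, 52.4 and 79.9 CPM and 6.40, 4.72, 4.95, 1.71 and 0.337 CPM (−4.83 ± 0.62). By contrast Pdgfra and Pdgfrb, receptors for PDGF, did not pass, at 1117, 1479, 2538 and 830.0 CPM and 903, 1082, 1096, 1176 and 734 CPM for Pdgfrb (adjusted p = 0.13), although Pdgfrb was called without primary replicate 4 (−0.78). In the list of growth and neurotrophic factors and their receptors, 12 of 38 tested members fell, against 24.4% of all genes, and 3 rose.

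Among 35 tested genes of TGF-beta and BMP signalling 14 fell and 4 rose, and among the antagonists 5 of 8 were lower and 1 higher. Grem1, a secreted BMP antagonist, was at 14001, 18962, 12223 and 6375 CPM in primary cells and 119, 197, 165, 211 and 401 CPM in SIRMu-1 (−5.88 ± 0.47, adjusted p = 6.72e-06). Nbl1, another secreted antagonist of that family, was at 258, 389, 195 and 246 CPM and 59.7, 18.6, 49.2, 45.3 and 42.8 CPM (−2.66 ± 0.31). The ligands went in different directions. Bmp4 rose from 19.5, 60.3, 28.0 and 33.1 CPM to 120.4, 129, 107, 114 and 130.1 CPM (1.77 ± 0.28, adjusted p = 0.000406), whereas Bmp2 fell from 10.8, 26.1, 2.01 and 27.0 CPM to 0.249, 0.472, 0.248, 0.296 and 0.749 CPM (−5.34 ± 0.67). Groups did not overlap in any of these 4 genes. Of 5 tested target genes of the pathway 1 fell and 4 did not pass, and Id3, a direct BMP target, was at 345, 308, 456 and 279 CPM and 320.2, 213, 396, 354 and 386 CPM (−0.06 ± 0.20, adjusted p = 0.838).

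Of 22 tested Wnt genes 11 fell and 2 rose. Fzd1, a Wnt receptor, was at 519.9, 402, 452 and 339 CPM and 83.7, 99.4, 80.0, 92.7 and 56.1 CPM (−2.38 ± 0.17, adjusted p = 3.54e-06), with every primary library above every SIRMu-1 library. Sfrp1, a secreted antagonist that binds Wnt proteins, had 996 reads in primary cells, at 3.71, 5.31, 22.2 and 11.6 CPM, and 1 read in SIRMu-1 (adjusted p = 3.70e-05). Axin2, a standard read-out of the pathway, gave 3.39, 2.92, 2.19 and 11.7 CPM and 2.35, 4.19, 4.33, 2.30 and 0.862 CPM and did not pass (adjusted p = 0.256, 95% interval −2.12 to 0.42).

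Insulin-like growth factor genes fell in 4 of 13 and rose in none, near the 24.4% of all genes that fell. Igf1, the ligand, was at 128, 296, 30.6 and 69 CPM in primary cells, 13409 reads in all, and had 3 reads over the SIRMu-1 libraries (adjusted p = 9.55e-06). Igfbp5, a secreted binding protein, was at 65.2, 477, 22.4 and 83.7 CPM and 2.70, 9.09, 4.83, 6.09 and 0.112 CPM (−5.14 ± 0.98, or −3.64 without primary replicate 2, adjusted p = 0.00143). Igf2, the other ligand, spanned 0.330 to 43.0 CPM within SIRMu-1 and 6.35 to 54.3 CPM in primary cells, and its difference did not pass (adjusted p = 0.442). Igfbp2 likewise ran from 1.72 CPM in replicate 5 to 708 CPM in replicate 2 of SIRMu-1 (adjusted p = 0.466), and it was called as lower only without that replicate (−3.23), with replicates 2 and 5 both left out, or with SIRMu-1 replicates 4 and 5 alone. The receptor Igf1r was at 147, 209.8, 172 and 235 CPM and 174, 141, 156, 136 and 117 CPM (adjusted p = 0.0515), and was called as lower when primary replicate 1 (−0.51) or SIRMu-1 replicate 1 (−0.47) was left out.

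In the Notch pathway 3 of 12 tested genes rose and 1 fell, a share of rises near the 21.7% of all genes. Jag1, a ligand, was at 342, 574, 463 and 251 CPM in primary cells and 1421, 1806, 1003, 1009.5 and 1093 CPM in SIRMu-1 (1.64 ± 0.25, adjusted p = 0.000379). Hey2, a transcriptional repressor that Notch activates, rose from 4.18, 1.87, 5.59 and 20.8 CPM to 153, 30.4, 102, 110.3 and 248 CPM (3.99 ± 0.77, or 5.05 without primary replicate 4, adjusted p = 0.00143). Primary replicate 4 was the nearest to SIRMu-1 in Hey2, and replicate 2 was the lowest SIRMu-1 library. Hey1, a target of the same family, did not pass (11.7, 4.00, 8.72 and 10.8 CPM and 16.6, 8.69, 20.1, 9.18 and 20.7 CPM).

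Genes of innate defence fell without exception among those that passed. In the interferon list 17 of 23 tested genes were lower and 6 missed the threshold, and the median log2 fold change of the 23 was −1.79. Tlr3, the endosomal sensor of double-stranded RNA, was at 35.3, 24.2, 9.30 and 34.8 CPM in primary cells and 0, 0.0629, 0, 0.0329 and 0.0749 CPM in SIRMu-1, 5 reads in all (−9.36 ± 0.59, adjusted p = 1.17e-06). Gbp5, of a gene family whose members can share reads, was at 15.0, 14.9, 1.21 and 3.00 CPM and 0.0711, 0.126, 0.0826, 0 and 0.0375 CPM (−6.98 ± 0.86). Ifit2, which binds foreign RNA and blocks its translation, stood at 35.7, 64.0, 19.0 and 7.36 CPM and 0.960, 0.535, 0.991, 0.757 and 1.69 CPM (−5.00 ± 0.56, or −4.40 without primary replicate 2). Primary cultures differed several-fold among themselves in these effectors, whereas the 5 SIRMu-1 libraries were all low. The sensors and transcription factors fell in 6 of 9 with a median of −0.89 and the effectors in 11 of 14 with a median of −3.77.

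Complement and chemokine genes that passed were all lower. In the complement list 6 of 8 tested genes fell, and of 7 tested chemokines 4 fell and 3 did not pass. C3, the central component, was low already in primary cells, at 1.74, 0.150, 0.939 and 0.837 CPM, and lower in SIRMu-1, at 0.107, 0.0944, 0.0826, 0.0329 and 0.0375 CPM (−3.61 ± 0.67, adjusted p = 0.00118). Of 16 tested genes of secreted inflammation 9 fell and none rose. Cxcl1, a neutrophil chemokine, was at 19.2, 23.9, 44.7 and 49.2 CPM and 4.69, 2.42, 2.52, 3.03 and 3.07 CPM (−3.44 ± 0.31, adjusted p = 1.46e-05). Ccl2, which attracts monocytes, was at 25.6, 16.8, 28.3 and 205 CPM and 0.0711, 0.252, 0.784, 0.296 and 0.337 CPM (−7.65 ± 0.96, or −6.10 without primary replicate 4). Cxcl12, a chemokine of stromal cells, was at 75.5, 86.1, 119.9 and 113 CPM and 148, 53.5, 144, 262 and 873 CPM, highest in replicate 5 of SIRMu-1, and did not pass (1.58 ± 0.64, or 0.60 without SIRMu-1 replicate 5, adjusted p = 0.0605), though it was called as higher without SIRMu-1 replicate 2 (1.85). Antigen presentation genes fell in 7 of 14.

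Genes of the extracellular matrix differed by group. Matrix proteases and their inhibitors fell in 14 of 19 tested genes and rose in none, with a median of −1.53. Collagens fell in 5 of 16 and rose in none, near the 24.4% of all genes. Col1a2, a main fibrillar collagen, is among those that did not pass, at 1.01 to 2.37 CPM in primary cells and 1.54 to 2.19 CPM in SIRMu-1. Such counts, like those of Tpi1 in the glycolysis list (at most 0.262 and 0.395 CPM) and Hmgb1 in the chromatin list (at most 0.631 and 0.908 CPM), are low for genes that most such cells express strongly, so these levels were not read, and whether the counting of reads set them was not tested. Elastic fibre genes, in contrast, rose in 8 of 19 and fell in 4. Ctsk, a lysosomal and secreted protease that cuts collagen, was at 327, 205, 201 and 61.3 CPM in primary cells and 1.14, 1.04, 1.11, 1.51 and 1.8 CPM in SIRMu-1 (−7.23 ± 0.52, adjusted p = 3.33e-06). Timp3, an inhibitor bound to matrix, was at 305, 502, 315 and 193 CPM and 37.4, 111, 75.9, 43.6 and 32.5 CPM (−2.45 ± 0.38, adjusted p = 0.00035). Ranges of the groups were apart in both.

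Ltbp4, which is needed to lay elastin onto microfibrils, rose from 29.1, 8.87, 14.6 and 5.07 CPM to 87.0, 146, 135, 151 and 308 CPM (3.52 ± 0.51, or 4.12 without primary replicate 1, adjusted p = 0.000246). Fbn2, a microfibril subunit of developing tissue, was at 223, 74.2, 97.4 and 26.1 CPM and 392, 1005, 474, 597 and 358 CPM (2.43 ± 0.53, or 3.10 without primary replicate 1, adjusted p = 0.00323). Eln, elastin itself, was at 5.80, 8.35, 126 and 66.8 CPM and 304, 1843, 696, 3453 and 4840.1 CPM (5.43 ± 1.20, or 6.37 without primary replicate 3). Efemp1, a fibulin known from an inherited macular dystrophy, moved against the list, with 3223 reads in primary cells, at 3.75, 5.39, 1.43 and 130.1 CPM, and 1 in SIRMu-1 (adjusted p = 0.000444). Primary replicate 4 gave most of those reads. Col15a1, a basement membrane collagen, fell from 808, 95.8, 76.2 and 103 CPM to 20.4, 8.12, 9.62, 26.1 and 18.8 CPM (−4.03 ± 0.78, or −2.47 without primary replicate 1), highest by far in primary replicate 1. Col4a1, a core collagen of basement membranes, was at 6382, 6120.1, 6208 and 5922 CPM and 5044, 6322, 4659, 4368 and 2868 CPM and did not pass (adjusted p = 0.197, 95% interval −0.94 to 0.13).

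Surface and adhesion genes fell in 10 of 26 tested members and rose in 2. Itga1, a collagen-binding integrin subunit, was at 123, 223, 243 and 162 CPM and 23.4, 38.4, 33.7, 28.9 and 12.2 CPM (−2.78 ± 0.31, adjusted p = 5.23e-05). Ncam1, a neural adhesion molecule, stood at 398, 348, 329 and 605 CPM and 89.5, 97.7, 77.6, 73.5 and 29.1 CPM (−2.51 ± 0.31), lowest in SIRMu-1 replicate 5. Pvrl1, the adhesion molecule nectin 1, was even within each group, with 233, 264, 223 and 274 CPM against 3.27, 3.96, 4.79, 4.31 and 3.52 CPM (−5.97 ± 0.24, adjusted p = 5.42e-08). Axon guidance genes fell in 8 of 27 and rose in 3, and genes of embryonic position fell in 5 of 17 and rose in 1, both near the 24.4% of all genes that fell. Lmx1b, a homeobox gene of the periocular mesenchyme, had 1493 reads in primary cells, at 31.5, 7.26, 0.760 and 21.3 CPM, and 1 in SIRMu-1 (adjusted p = 0.000214). Foxc2, a forkhead gene of the same tissue, rose from 2.41, 3.48, 48.6 and 7.27 CPM to 131, 125, 187, 139 and 257 CPM (3.45 ± 0.80, or 5.26 without primary replicate 3), and did not pass with the libraries of a code summed (3.13, adjusted p = 0.0723).

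Metabolic genes split by pathway. Uptake and glycolysis fell in 8 of 15 tested genes and rose in none, while 5 of 10 genes of the pentose phosphate and serine pathways rose and 2 fell. Phgdh, the first enzyme of serine synthesis, was at 114, 61.9, 102 and 64.5 CPM in primary cells and 258, 282, 252, 260.4 and 194 CPM in SIRMu-1 (1.54 ± 0.22, adjusted p = 0.000196). Psat1, the next enzyme, rose from 49.9, 25.4, 55.0 and 24.3 CPM to 171, 121, 150.2, 176 and 203 CPM (2.09 ± 0.27). Shmt2, which turns serine into glycine and one-carbon units in mitochondria, was at 101, 67.4, 94.7 and 75.9 CPM and 251, 256, 214, 248 and 245 CPM (1.52 ± 0.16). The groups did not overlap in any of the 3, and replicate 2 of SIRMu-1 was the highest library in Phgdh and Shmt2. Slc16a3, the lactate exporter MCT4, had 2874 reads in primary cells, at 26.6, 33.9, 12.3 and 45 CPM, and 2 in SIRMu-1 (adjusted p = 3.73e-06). Ldha, which makes lactate, did not pass, with 164, 142, 167 and 378 CPM and 149, 100.4, 160.3, 159.9 and 192 CPM (95% interval −1.10 to 0.14).

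Sterol and fatty acid synthesis rose in 13 of 25 tested genes and fell in none. This count depended on the libraries used: with the 2 SIRMu-1 cultures that had the drugs it was 23, and with libraries that share a file-name code summed it was 7. Fads2, a fatty acid desaturase, was at 4.14, 4.30, 4.43 and 8.42 CPM and 12.8, 21.0, 25.5, 34.3 and 107 CPM (2.92 ± 0.57, or 2.12 without SIRMu-1 replicate 5, adjusted p = 0.00167), highest in replicate 5. Within SIRMu-1, the cultures with the drugs exceeded those without by 1.55 on the log2 scale for Fads2, and the difference did not pass (edgeR adjusted p = 0.978). The cultures with the drugs include replicate 5, the only one of passage 20, so drugs and passage cannot be told apart there. At passage 11 the list summed to 2826 CPM in replicate 3, with the drugs, and to 1917 and 2728 CPM in replicates 2 and 4, without them.

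Lysosomal genes fell in 23 of 28 tested members and rose in 1, Ctsz, with a median of −0.96. Gpnmb, a membrane glycoprotein of stressed lysosomes, was at 409.8, 301, 457 and 442 CPM and 17.8, 9.63, 37.6, 20.3 and 78.8 CPM (−3.62 ± 0.50, or −4.26 without SIRMu-1 replicate 5, adjusted p = 0.00019). Ctsz, a carboxypeptidase, rose from 33.4, 16.9, 29.2 and 34.7 CPM to 67.1, 56.7, 63.3, 63.8 and 45.2 CPM (1.05 ± 0.22). Antioxidant genes fell in 8 of 23 and rose in 2, against 24.4% and 21.7% of all genes. Sod3, the secreted superoxide dismutase, was at 106, 259, 367 and 350.1 CPM and 9.89, 18.0, 17.8, 13.7 and 3.03 CPM (−4.44 ± 0.50, adjusted p = 5.25e-05), while Prdx4, a peroxiredoxin of the endoplasmic reticulum, rose from 64.2, 43.9, 88.3 and 45 CPM to 122, 97.2, 119, 115 and 98.7 CPM (0.87 ± 0.19), and did not pass with the libraries of a code summed (0.82, adjusted p = 0.0712). Hypoxia genes fell in 5 of 14 and rose in 1. Stress response genes fell in 4 of 23 and rose in 1, a share of falls under the 24.4% of all genes.

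Among the largest rises outside cell division were single genes of varied function. Lrp2, the endocytic receptor megalin, was at 10.4, 5.88, 3.49 and 22.1 CPM in primary cells and 1099, 1556, 764, 322 and 117 CPM in SIRMu-1 (6.21 ± 0.86, or 6.87 without primary replicate 4, adjusted p = 0.000187). Its SIRMu-1 levels spanned a wide range, with replicate 5, of passage 20, lowest. Avil, an actin-binding protein of the gelsolin family, was much more even, at 1.38, 0.936, 1.30 and 1.41 CPM and 43.5, 57.6, 43.5, 38.2 and 60.6 CPM (5.27 ± 0.22, adjusted p = 6.82e-08). Kcnn4, a calcium-activated potassium channel, rose from 0.158, 0.187, 0.134 and 0.529 CPM to 54.7, 11.5, 58.1, 88.8 and 10.8 CPM (7.47 ± 0.86, or 8.08 without primary replicate 4, adjusted p = 6.15e-05), from 24 reads to 6300. Replicates 2 and 5 of SIRMu-1 were its lowest.

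Receptors known from endothelium were another set. Tek, the angiopoietin receptor, was at 2.48, 0.711, 1.48 and 1.63 CPM and 44.6, 30.7, 24.5, 30.9 and 29.4 CPM (4.34 ± 0.37, adjusted p = 1.04e-05). Flt1, a VEGF receptor, was at 6.03, 9.09, 12 and 39.8 CPM and 276, 144, 361, 424 and 255 CPM (4.13 ± 0.58, or 5.01 without primary replicate 4). Kdr, the other main VEGF receptor, went the other way, with 356 reads in primary cells and 1 in SIRMu-1. The defining endothelial genes Cdh5 and Cldn5 had 0 reads each in primary cells and 3 and 0 reads in SIRMu-1. Of 10 listed endothelial genes 5 could be tested, 2 higher and 1 lower.

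Eif2s3y, carried on the Y chromosome, was at 1.46, 0.711, 1.12 and 18.7 CPM in primary cells and 124, 147, 163, 148 and 217 CPM in SIRMu-1 (4.87 ± 0.98, or 7.18 without primary replicate 4, adjusted p = 0.00295), and it did not pass with the libraries of a code summed (4.59, adjusted p = 0.0587). All SIRMu-1 libraries were high, and of the primary libraries only replicate 4 rose above a few CPM. Its reads may be shared with a near-identical copy on the X chromosome. The sex of the donors, which the labels do not give, and the state of the cells cannot be told apart for Eif2s3y. Ddx3, also among the 12 largest rises, had a like pattern (4.92 ± 0.88, edgeR adjusted p = 0.000915). It was at 1.14, 1.27, 2.10 and 21.3 CPM in primary cells and 150, 215, 193, 172 and 244 CPM in SIRMu-1. Whether donor sex set either gene was not tested.

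The tested genes were next placed in the order in which they lie along the chromosomes, by symbol from RefSeq's annotation, and the median log2 fold change was taken over windows of 25 neighbouring genes with a mean log2 CPM of at least 3. Of 7401 windows the middle 98% had medians between −0.26 and 0.71, and the lowest was −0.39. Windows with a median of at least 0.5 joined into 5 runs, and no window reached −0.5. The threshold was set after the window medians had been seen, so the runs are a description with no test. Genes named from them were likewise chosen after their values were seen.

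The longest run spanned 73 genes from Mrpl21 to Snx15, of which 58 had a log2 fold change above 0, 46 rose and 5 fell, with a median of 0.74. It holds genes of unlike function, such as Ppp1ca, a catalytic subunit of protein phosphatase 1 (1.61 ± 0.13), Rela, the NF-kB subunit p65 (0.91 ± 0.09), and Sf3b2, a splicing factor (1.19 ± 0.09). The run's median log2 level was 0.63 to 0.75 above the primary mean in each of the 5 SIRMu-1 libraries, and each primary library differed from the mean of the other 3 by −0.12 to 0.12. The shift was thus alike in all SIRMu-1 passages, replicate 2 included. Rela was at 69.7, 77.3, 62.5 and 71.4 CPM in primary cells and 135, 118, 128, 131 and 148 CPM in SIRMu-1, every SIRMu-1 library above every primary one.

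The other 4 runs were smaller. A run of 47 genes from Cog1 to Timp2 had 29 higher and 6 lower (median 0.51), one of 48 from Etv3 to Ube2q1 had 24 and 6 (0.51), one of 26 from RT1-CE5 to Fkbpl, in the major histocompatibility region, had 16 and 4 (0.53), and one of 43 from RGD1565498 to Cox6c had 22 and 2 (0.42). The last run holds Avil, Cdk4 and Shmt2, whose values are given above, together with Nab2, a transcriptional corepressor (1.46 ± 0.42), and Mars, a transfer RNA synthetase (1.01 ± 0.13). Nab2 did not pass with the libraries of a code summed (1.37, adjusted p = 0.0643), with SIRMu-1 replicates 1 to 3 alone or with the SIRMu-1 cultures without drugs alone. The Cog1 to Timp2 run holds Tk1, a thymidine kinase of the replication list, beside Srsf2, a splicing factor (1.45 ± 0.13), and Nup85, a nuclear pore protein (1.49 ± 0.18). Medians were between 0.37 and 0.69 in every SIRMu-1 library and between −0.18 and 0.26 in every primary library over these 4 runs.

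**Figure D5:**
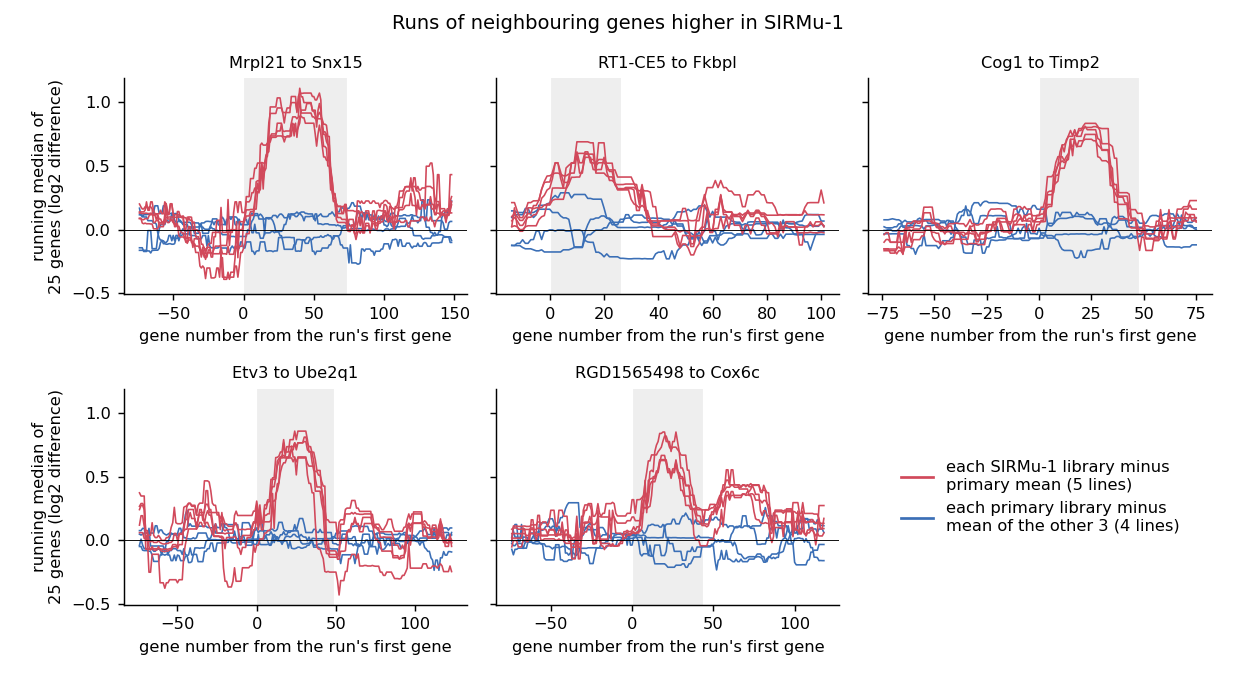
Running median over 25 neighbouring genes of the log2 difference in level (vertical axis) against gene number from the first gene of each run (horizontal axis), 1 panel per run, with the run shaded. Red lines are single SIRMu-1 libraries minus the primary mean and blue lines are single primary libraries minus the mean of the other 3, and near the middle of each shaded run the red lines lie above the blue ones, while at its edges they meet.

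Within SIRMu-1, 2 libraries differed from the others in a definite way. Replicate 2, of passage 11 and without drugs, was lowest in the genes of cell division, as shown above, and its replication list summed to 899.5 CPM against 1394 to 2060.0 CPM in the other 4 and 408 to 448 CPM in the primary libraries. Replicate 5, of passage 20, differed by chromosomal neighbourhood. Over 70 windows of 100 neighbouring genes, medians of each library's log2 level against the mean of the others of its group had an SD of 0.14 in replicate 5, against 0.038 to 0.067 in SIRMu-1 replicates 1 to 4 and 0.048 to 0.068 in the primary ones. In replicate 5, 11 windows were at −0.2 or below and 2 at 0.2 or above, from −0.28 in the window from Efna4 to Dclre1b to 0.36 in that from Dsel to Ier5. No window of another SIRMu-1 library passed 0.2 in either direction, and of the primary libraries 1 window of replicate 1 did.

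Leaving out replicates 2 and 5 of SIRMu-1, a choice made after these patterns were seen, gave 5008 called genes. The counts of higher genes were then 40 in mitosis, 41 in replication and 18 in repair, and those of lower genes 17 in the interferon list, 14 among matrix proteases, 24 in the lysosome list and 14 in the Müller list. Dcn, a small matrix proteoglycan, varied with single libraries. It was at 451, 1962, 202 and 110.0 CPM in primary cells and 0.640, 0.252, 0.165, 1.35 and 20.3 CPM in SIRMu-1 (−7.23 ± 1.47, or −5.82 without primary replicate 2, and −10.15 when SIRMu-1 replicate 5 was left out, adjusted p = 0.00205).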

How the data were processed

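Poly(A) RNA of 12 cultures was sequenced on a NextSeq500 after a stranded library preparation, per the labels' protocols. The submitters' processing notes name cutadapt 1.8.1, STAR 2.5.3a, edgeR 3.18.1 and the rat build rn6. Values used here are the raw counts per gene deposited by the authors, 1 table per library. Their table of normalized values was not used. Reads in genes were 55.8% to 63% of all reads of a library. Rows that name no gene (reads unmapped, outside genes, in several places or ambiguous) hold the rest and stayed out of library sizes.

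Counts were tested with edgeR 4.0.16 (quasi-likelihood, in R 4.3.3) on 11321 genes that passed filterByExpr, with TMM scaling and 3 group means over 12 libraries, hence 9 residual degrees of freedom. The standard error is the log2 fold change divided by the square root of F, and 95% intervals use the t distribution. DESeq2 1.42.0 was an alternative. The script was tested on simulated counts. Log2 CPM for correlations and windows carry a prior count of 2 or a pseudocount of 0.5. Of the 11321 genes 11159 were placed along the chromosomes by RefSeq symbol or synonym (GRCr8, an order that may differ from rn6). Promoters were matched by symbol.

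The 45 gene lists, and the libraries compared, were chosen with earlier results of these data known, so they are not independent evidence. Genes were named by a rule: fixed landmark genes, per list up to 2 called genes in each direction with the largest change, a mean log2 CPM of at least 3 and groups that do not overlap, the 12 largest rises and 12 largest falls by the same criteria, the 5 genes with most reads in 1 group and none in the other, and the 5 list genes most variable within SIRMu-1. Outside that rule, the genes below were named after their values were seen: Aqp4, Bmp2, Cdk1, Cdk4, Cdk6, Cldn5, Col1a2, Dbi, E2f7, Efemp1, Eng, Exo1, Fbn2, Fgfr1, Gbp5, Hey1, Hmgb1, Ifit2, Igf1r, Igfbp2, Itga1, Kcnj10, Kcnn4, Kdr, Lmx1b, Mars, Nab2, Nbl1, Ncam1, Nup85, Ppp1ca, Rela, Sf3b2, Sfrp1, Shmt2, Slc16a3, Srsf2, Tlr3, Top2a, Tpi1 and Zwint. Alternatives were 22 settings of scaling, filter, test, block, libraries and drug matching. No column of another series was used. Some genes and 1 of the 45 lists are not reported here.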

Additional observations from a re-analysis of the deposited data

Results flagged for a closer look

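Single libraries that stood apart from the rest of their group by Dixon's criterion were looked for in 187 groups of values. These were log2(CPM + 1) of each named gene in each group where at least 1 library reached 1 CPM. Ccnd2, Cdkn2a, Cdkn2b, Cdkn2c, Ddx3 and Thy1 were not among the genes looked at. For independent genes not picked by their values, chance gives about 1 in 20 groups. Some genes here were named after their values were seen or for their spread, and some move together, so that rate is no yardstick. There were 21 values that stood apart. SIRMu-1 replicate 2 held 9 of them, primary replicate 4 held 4, SIRMu-1 replicate 5 held 3, primary replicates 1 and 3 held 2 each and SIRMu-1 replicate 3 held 1.

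SIRMu-1 replicate 2 was the lowest of its group in 7 genes of the cell cycle and chromatin. Ccnb1 was at 13.8 CPM there against 49 to 70 in the other 4 libraries, and Cdk1 was at 21.9 CPM against 72.5 to 105. Mcm5 was at 10.9 CPM against 48.8 to 73.2, and Rrm2 was at 11.5 CPM against 40 to 62.6. E2f7 was at 1.92 CPM against 7.18 to 11.4. Uhrf1 was at 8.94 CPM against 34.4 to 56.6, and Ezh2 was at 29.3 CPM against 64.1 to 81.4. The same library was lowest for Nbl1, a secreted BMP antagonist, at 18.6 CPM against 42.8 to 59.7, and for Plau at 0.85 CPM against 11.7 to 25.5.

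SIRMu-1 replicate 5 was highest for Dcn, at 20.3 CPM against 0.165 to 1.35, and for Nkx2-3, at 2.77 CPM against 0 to 0.0329. It was lowest for Ncam1, at 29.1 CPM against 73.5 to 97.7. Shmt2 was at 214 CPM in SIRMu-1 replicate 3 against 245 to 256 in the others.

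Among primary cultures, replicate 4 was highest for the Y-linked Eif2s3y, at 18.7 CPM against 0.711 to 1.46, for Fads2, at 8.42 CPM against 4.14 to 4.43, and for Ldha, at 378 CPM against 142 to 167. It was lowest for Top2a, at 6.92 CPM against 13.7 to 14.2. Replicate 1 was highest for Col15a1, at 808 CPM against 76.2 to 103, and for Ccnb1, at 5.88 CPM against 3.7 to 3.97. Replicate 3 was lowest for Eng, at 11.4 CPM against 477 to 770, and for Gpx3, at 23.2 CPM against 292 to 430.1.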

How the results depend on the processing

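In all, 22 alternatives were run on the comparison of SIRMu-1 with primary cells, and no call of the named genes checked changed direction. Changes of sign between values that both missed the threshold were not counted. With the 9 libraries of the comparison alone in the fit, 10728 genes were tested and 4396 called, 2085 higher and 2311 lower. Summing the libraries that share a file-name code left 3173 genes called, 1466 higher and 1707 lower, and it has fewer samples. Leaving out each library in turn gave 4572 to 5332 genes called, 2148 to 2449 higher, 2395 to 2901 lower and 421 to 477 list members called. The drug-matched comparison, with 3782 genes called, gave 1218 to 4040 when 1 library was left out, the lowest without SIRMu-1 replicate 5.

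Some replicate numbers are shared by both groups, so a fit with the replicate block was run. It called 2379 genes higher and 2594 lower, and 324 genes in the drug-matched comparison. Deviations of same-numbered libraries correlated at 0.146, 0.016, 0.038 and −0.02, and 0 of 4 primary libraries correlated best with their own number. So few pairs cannot exclude a shared day or animal. The labels tie the number to neither, and the main fit has no block. Without SIRMu-1 replicates 2 and 5 together, a setting chosen after seeing the data, 5008 genes were called.

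Ccnd2, Cdkn2a, Cdkn2b, Cdkn2c, Ddx3 and Thy1 were not checked here. Of the other 87 called named genes, 10 missed the threshold under at least 1 alternative. Eif2s3y, Foxc2, Glul, Gpx3, Nab2, Prdx4 and Zwint did with the libraries of a code summed, and Clu, Glul, Gpx3, Igfbp3 and Plau with the 2 SIRMu-1 cultures that had the drugs. SIRMu-1 replicates 4 and 5 alone lost Clu, Glul, Gpx3 and Plau, while SIRMu-1 replicates 1 to 3 alone, or the cultures without drugs alone, lost Igfbp3, Nab2 and Plau. Of the 10, 2 (Igfbp3 and Plau) missed it when 1 library was left out. Some named genes that missed the threshold in the main fit passed it elsewhere. Slc1a3 was called as lower without primary replicate 3 (−0.83). With the replicate block, Sox9 was called as higher (0.75) and Igf2 as lower (−2.95). Cxcl12 was called as higher with the 2 SIRMu-1 cultures that had the drugs (2.36), and Igf1r as lower by DESeq2 (−0.43). Further cases of Cxcl12, Igf1r, Igfbp2 and Pdgfrb are given above. Depth limits what can be said of genes near 0 reads.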

Other observations

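Among called list genes with a mean log2 CPM of at least 3, those with the highest SD of log2 CPM within SIRMu-1 were Dcn, Igfbp3, Igfbp5, Plau and Gpx3, all secreted products. Igfbp3, the main carrier of IGF in serum, was at 442, 738, 201 and 199.6 CPM in primary cells and 4.23, 138, 5.74, 2.67 and 31.2 CPM in SIRMu-1 (−3.44 ± 1.05, or −5.17 without SIRMu-1 replicate 2, adjusted p = 0.0188). Its groups did not overlap, and SIRMu-1 replicate 2 stood highest of the 5. Gpx3, the secreted glutathione peroxidase, was at 314, 430.1, 23.2 and 292 CPM and 13.5, 2.83, 7.93, 8.89 and 72.1 CPM (−3.66 ± 0.95, or −5.02 without SIRMu-1 replicate 5, adjusted p = 0.00816), and its groups overlapped, since SIRMu-1 replicate 5 stood above primary replicate 3. Plau, the urokinase plasminogen activator, was at 51.0, 115, 80.8 and 51.3 CPM and 25.5, 0.850, 13.5, 14.4 and 11.7 CPM (−2.50 ± 0.77, adjusted p = 0.0194), and it did not pass without primary replicate 2 (−2.21, adjusted p = 0.053). Without that library Igfbp3 did not pass either (−2.95, adjusted p = 0.0503). With the 2 SIRMu-1 cultures that had the drugs, Igfbp3 (−4.42), Gpx3 (−2.73) and Plau (−2.56) did not pass. All these p-values are from edgeR's quasi-likelihood test.

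In a list of potassium and water channels 5 of 10 tested genes fell and 1, Kcnn4, rose. Astrocyte genes fell in 2 of 4, pigment epithelium genes in 2 of 2, and Hippo pathway genes fell in 2 and rose in 3 of 15. Proteoglycans and matricellular genes fell in 7 and rose in 2 of 24, a share of falls near the 24.4% of all genes. Epithelial genes rose in 1 of 3, and of 2 tested Schwann and neural crest genes none passed.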
